A study of Mus musculus with 2 samples.

Results

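The 9 genes described here, Malat1, Neat1, Miat, Meg3, Rian, Mirg, Snhg11, Snhg14 and Kcnq1ot1, encode long noncoding RNAs known from the nucleus of brain cells. They were taken by name from a table of 55536 annotated genes, and all 9 matched 1 entry. Total RNA came from left cerebral cortex of 2 male mice, of the strain 5xFAD/CAST (5xFAD X Cast in the description) at 8-10 months. The labels number them as biological replicates 1 and 2 but give both the same donor label, so that treating them as separate animals rests on the replicate numbers and separate biosample labels. In 5xFAD mice, human transgenes with familial Alzheimer mutations are driven in neurons by the Thy1 promoter, and CAST is a wild-derived strain. Which alleles each animal carried was not analysed here, and both animals belong to the same group, so the data give levels and their spread between 2 animals. No p-value was computed, and a ratio between the animals has no replicate check.

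Long noncoding RNAs of the nucleus act in several ways. Malat1 gathers in nuclear speckles, which store splicing factors, and Neat1 is the scaffold of paraspeckles, bodies built around RNA-binding proteins. Meg3, Rian and Mirg are read from the maternal copy of the Dlk1-Dio3 imprinted domain, while Snhg14 and Kcnq1ot1 are paternal transcripts that run opposite to Ube3a and Kcnq1 and are known for silencing genes of their domains. Nuclear location and parental origin were not measured in these libraries, which were made from whole tissue RNA after removal of ribosomal RNA.

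The libraries held 34101499 and 32543032 reads, of which 33925198 and 32380299 fell on annotated genes. The limit set by a count of 0, 3 reads, corresponded to 0.0884 and 0.0926 CPM, and every member lay far above it. Markers of excitatory neurons summed to 2446 TPM, a level per length and depth, in replicate 1 and 2645 in replicate 2. The choroid plexus, a tissue outside the cortex, contributed markers summing to 562.5 TPM in replicate 1 and 109.8 TPM in replicate 2, and all 10 of them were at least 2-fold higher in replicate 1, a call that 0.647% of all tested genes met. None of the 10 was at 0 in both animals.

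Together the 9 genes took 1.15% of all gene reads in replicate 1 and 1.51% in replicate 2. Among the reads of 10156 genes annotated as long noncoding or listed here, they took 24.8% and 30.9%. Both shares depend on 1 other gene of that group, Gm26917, which drew 759303 reads in replicate 1 and 675509 in replicate 2. The summed level of the 9 genes was 5168 TPM in replicate 1 and 6848 TPM in replicate 2, and without Malat1 it was 2083 and 2697 TPM. Levels spanned a wide range, from Malat1, 14th of all genes by TPM, to Kcnq1ot1, 13780th. Malat1, Meg3, Snhg14, Rian and Snhg11 were above 200 TPM in both animals, and the label of abundance does not hold per length for Kcnq1ot1, Neat1 or Mirg. The places of Snhg14 and Rian depend on how reads are split among transcripts, as given below.

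**Figure D1:**
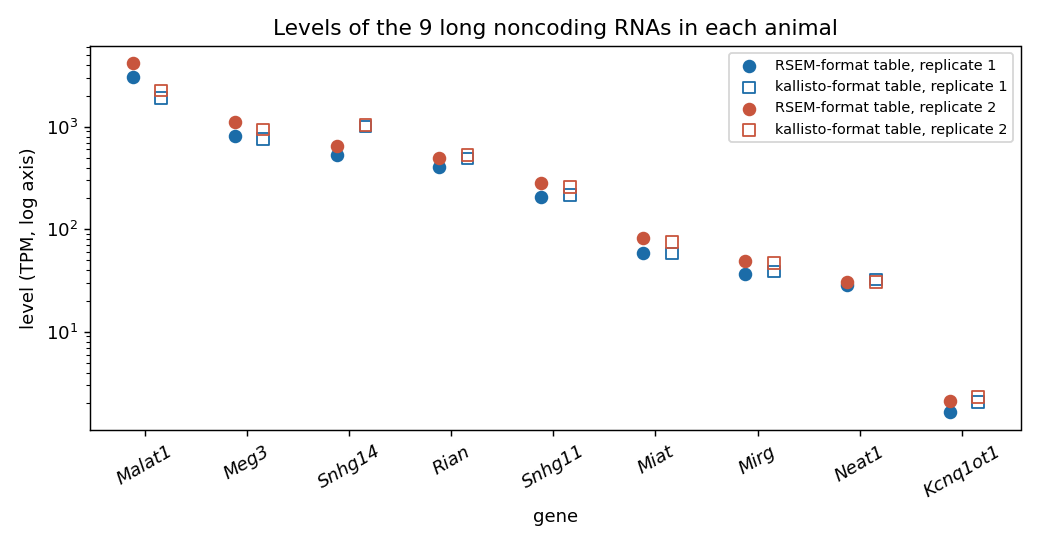
Level of each gene in TPM on a log axis, in each animal, from the RSEM-format gene table (filled circles) and from the kallisto-format table summed per gene (open squares). Malat1 is highest at 3085 and 4151 TPM and Kcnq1ot1 lowest at 1.64 and 2.11 TPM, and Snhg14 is higher in the kallisto-format table in both animals.

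Malat1 (19:5795690-5802672, minus strand, mm10, annotated as lincRNA) drew 248969 reads in replicate 1 and 315967 in replicate 2. Its level was 3085 TPM in replicate 1 and 4151 TPM in replicate 2, or 3618 ± 754 TPM (SD, n = 2). It was the second of the long noncoding genes by TPM and by reads. Malat1 was higher in replicate 2, with a log2 ratio of 0.38 (95% counting interval of the split of its reads, 0.37 to 0.39).

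Most Malat1 reads were assigned to the unspliced transcript, but most of its TPM was not. Malat1-201, a single exon of 6983 bases, received 91.4% of the gene's reads in replicate 1 and 92.2% in replicate 2, yet only 42.9% and 45.7% of the gene's TPM. The other 3 annotated models are spliced, shorter than 1 kb, and lie with every base inside Malat1-201. These 3 held 8.59% and 7.79% of the reads and 57.1% and 54.3% of the TPM, because TPM divides reads by length. In the kallisto-format table, computed from the reads directly, the short models held 23.6% and 18.5% of the TPM, and the gene stood at 2087 ± 244 TPM.

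The short models differ from the long one only at a splice junction, so the junction sequences are what a read must cross to tell them apart. Below, the last 20 bases before each junction are in lower case and the first 20 after it in capitals, 5′ to 3′ on the sense strand, with T for U. The stretches removed, at 19:5795786-5797003 for Malat1-202, 19:5795786-5796388 for Malat1-204 and 19:5801967-5802237 for Malat1-203, measure 1218, 603 and 271 bases, and each begins with GT and ends with AG.
Malat1-202: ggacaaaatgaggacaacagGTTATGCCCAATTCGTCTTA
Malat1-204: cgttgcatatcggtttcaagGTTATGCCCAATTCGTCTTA
Malat1-203: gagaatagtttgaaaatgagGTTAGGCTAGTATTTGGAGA
The first pair share their second exon near the 3′ end, and Malat1-203 joins bases 435 and 707 of the long transcript near its 5′ end. Malat1-204 held 25.4% and 25.5% of the gene's TPM, Malat1-202 20.7% and 18.9%, and Malat1-203 11.0% and 9.91%. Malat1-203 was assigned 3274 and 3533 reads in the RSEM-format table and 0 and 5 reads in the kallisto-format table, so its level rests on the table used. Reads across the junctions were not counted here.

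**Figure D2:**
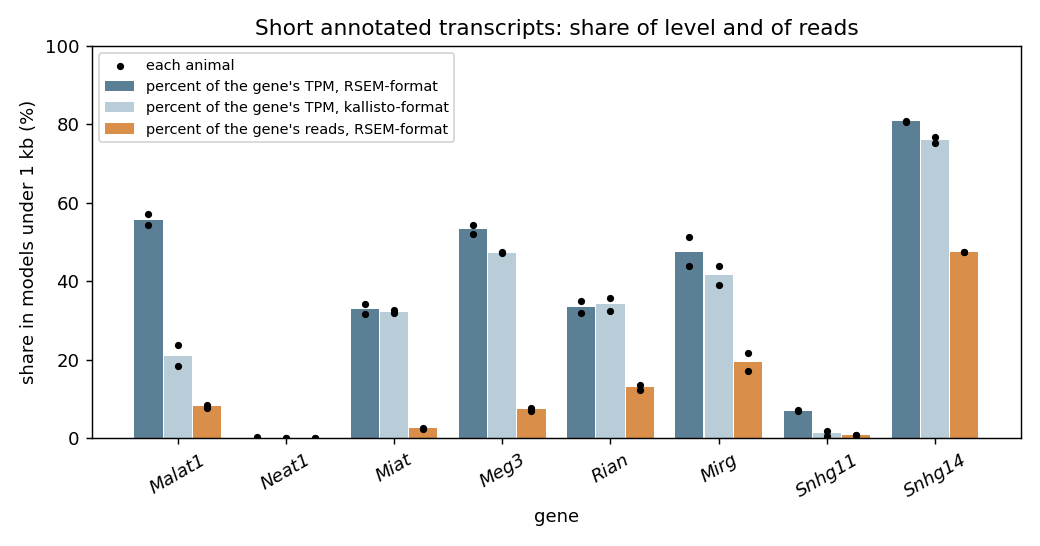
Share of each gene's TPM and of its reads held by annotated transcripts under 1 kb (bars, mean of 2 animals; points, each animal), for the 8 genes with more than 1 annotated transcript. For Malat1 and Meg3 the short models hold over 50% of the RSEM-format TPM with under 10% of the reads, and for Neat1 they hold almost none.

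Neat1 (19:5824708-5845478, minus strand), a neighbour of Malat1 on the same strand, was far lower. It drew 2895 reads in replicate 1 and 2796 in replicate 2. Its level was 28.5 TPM in replicate 1 and 30.7 TPM in replicate 2, or 29.6 ± 1.52 TPM (SD, n = 2), the 34th of the long noncoding genes. The log2 ratio of -0.02 had a 95% counting interval from -0.09 to 0.06 that includes equal levels, and it turned to 0.02 with total counts, 0.07 with spike-in totals and 0.10 on deposited TPM.

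Neat1 is known for a short and a long form with the same start, of which the long form builds the paraspeckle. Of the annotated models only the long one is unspliced, and whether a spliced model stands for the known short form was not tested. The spliced model Neat1-202, of 3004 bases, held 89.6% of the gene's TPM in replicate 1 and 89.7% in replicate 2. The long model Neat1-201, of 20771 bases, held 6.92% and 7.03% of the TPM with 35.2% and 35.5% of the reads, which came to 1018 and 994 reads. Neat1-202 is set apart from the start of the long model by the removal of 166 bases at 19:5844759-5844924, printed with the same use of capitals.
Neat1-202: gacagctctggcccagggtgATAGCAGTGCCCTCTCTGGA
The rest of Neat1-202 lies within the first 3172 bases of Neat1-201, where the split of reads between the models rests on the quantification. The kallisto-format table gave Neat1-202 a share of 78.3%, Neat1-203 (1030 bases) 15.05% and Neat1-201 6.62%. For Neat1-202 and Neat1-201 the interval included equal levels, with log2 ratios of -0.02 (-0.12 to 0.07) and 0.00 (-0.13 to 0.13).

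Most genes for paraspeckle proteins, which bind Neat1, showed no difference past the counting rule, which calls a gene where the interval of the split of its reads, with an error of 0.1%, excludes equal levels. Of 20 listed genes, 3 were higher in replicate 2, 0 were higher in replicate 1 and 17 were not called. Of all 19484 genes tested (at least 10 reads in a library), 8.76% were called, 4.25% as higher in replicate 2 and 4.51% as higher in replicate 1. The DBHS proteins Sfpq, Nono and Pspc1 form the core of the paraspeckle: Sfpq counted 4144 and 4231 reads, Nono 2887 and 2805, and Pspc1 1274 and 1254, and none of them was called. Tardbp and Ewsr1, RNA-binding proteins named because they were called, had log2 ratios of 0.18 and 0.15. Hnrnpk, the most abundant of the list at 277.5 ± 24.5 TPM (SD, n = 2), had a ratio of -0.02.

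Miat (5:112213228-112229395, minus strand), also called Gomafu, is known from neurons and binds splicing factors through repeats of ACTAAC, which resembles the branch point sequence of introns. It drew 8596 reads in replicate 1 and 11255 in replicate 2. Its level was 58.6 TPM in replicate 1 and 82.9 TPM in replicate 2, or 70.8 ± 17.2 TPM (SD, n = 2). Miat was thus higher in replicate 2, with a log2 ratio of 0.42 (0.38 to 0.46).

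The leading transcript, Miat-201 (8758 bases, 7 exons), held 62.2% and 64.5% of the gene's TPM with 91.6% and 91.7% of its reads. Miat-202 (747 bases) held 19.4% and 17.8% of the TPM, Miat-206 (357 bases) 8.69% and 11.4%, and the longest model, Miat-205 (9163 bases), 3.67% and 3.96%. Miat-201 contains ACTAAC 11 times on the sense strand, 6 of them as TACTAAC, or 1.26 times per kb. Of 19463 annotated noncoding transcripts with at least 1000 bases, retained introns included, 99.7% have fewer per kb and the median has 0. The densest 200 bases (5:112217319-112217518, minus strand, mm10, exonic) hold 4 copies, in capitals.
Miat-201: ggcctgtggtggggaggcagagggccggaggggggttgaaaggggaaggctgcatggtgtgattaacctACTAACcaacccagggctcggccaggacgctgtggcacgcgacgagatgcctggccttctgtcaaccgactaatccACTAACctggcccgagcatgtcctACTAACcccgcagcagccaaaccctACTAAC
Among the leading and the longest transcripts of the other genes, none reached that density: Neat1-202 had 1 copy, Snhg11-201 1, Meg3-209 1, Mirg-204 1, Neat1-201 4 and Kcnq1ot1-201 20 over its 93092 bases, or 0.21 per kb. TGTGTG was frequent in Meg3-209, with 53 copies, and in Miat-201, with 31, above 94.6% and 94.3% of the same transcripts.

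The splicing factors known to bind this Miat repeat, Sf1, Qk and Celf3, did not move together. Sf1, the branch point binding protein, had 3648 and 3494 reads in replicates 1 and 2 and was not called, with a log2 ratio of -0.03. Qk, the quaking protein, had 15421 and 13897 reads and was higher in replicate 1, with a log2 ratio of -0.12. Celf3, a neuronal splicing factor, had 2944 and 3155 reads and was higher in replicate 2, with a log2 ratio of 0.13. They belong to a list of 20 nuclear speckle and splicing proteins, of which 9 were higher in replicate 2, 1 was higher in replicate 1 and 10 were not called. The median log2 ratio of these 20 was 0.095. The most abundant of that list, Srrm2, a scaffold of the speckle, stood at 183.6 TPM in replicate 1 and 234.4 TPM in replicate 2 and had a log2 ratio of 0.22.

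Meg3 (12:109541001-109571726, plus strand) was the second gene of the set, with 70011 reads in replicate 1 and 88790 in replicate 2. Its level was 819.6 TPM in replicate 1 and 1102 TPM in replicate 2, or 960.8 ± 199.7 TPM (SD, n = 2). As for Malat1, replicate 2 was higher, at a log2 ratio of 0.38 (0.36 to 0.39). The RefSeq window of 300 bases at its 5′ start (12:109540746-109541045, plus strand, GRCm38.p6) is shown because, of the windows found for the set, it alone holds the TATA letters, in capitals.
Meg3 promoter: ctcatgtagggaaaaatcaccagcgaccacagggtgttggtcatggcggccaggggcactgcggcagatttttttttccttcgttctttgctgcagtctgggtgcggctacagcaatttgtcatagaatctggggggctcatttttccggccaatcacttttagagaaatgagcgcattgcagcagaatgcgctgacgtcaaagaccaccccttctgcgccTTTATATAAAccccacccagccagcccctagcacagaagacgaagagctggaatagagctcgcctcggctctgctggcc
The search was for TATAAA and its reverse complement TTTATA, which overlap here, and 13.6% of 32851 RefSeq windows hold either. RefSeq windows matched 8 of the 9 genes, all but Neat1, and Meg3 had 2 of them. Windows sit at RefSeq starts, which can differ from the annotation used for the counts: the Snhg14 window (7:60450128-60450427) lies outside the annotated gene, and the Mirg window (12:109734731-109735030) lies inside it. The Sp1 box (GGGCGG or CCGCCC) was found only in the window of Miat, once, against 35.7% of all windows.

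The reads of Meg3 fell mainly on a long model, while its TPM was divided among several. Meg3-209 (14548 bases, 5 exons) received 79.5% and 80.4% of the reads and 18.8% and 20.1% of the TPM. Meg3-203 (457 bases, 3 exons) led by TPM, at 27.2% and 25.5%, with 2.84% and 2.52% of the reads. Meg3-205 (1498 bases) held 17.6% and 18.97% of the TPM, and Meg3-202 (755 bases) 14.7% and 14.5%. Meg3-203 and Meg3-205 lie wholly upstream of the start of Meg3-209, and 50.0% of the sampled windows of Meg3-203 also occur in Gm27000, so its reads are uncertain.

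Rian (12:109603940-109661716, plus strand), the host of a cluster of small nucleolar RNAs, drew 15027 reads in replicate 1 and 16231 in replicate 2. Its level was 408 TPM in replicate 1 and 496 TPM in replicate 2, or 451.9 ± 62.1 TPM (SD, n = 2). Replicate 2 was higher by a small amount, a log2 ratio of 0.145 (0.113 to 0.178). The gene total covers transcripts that differed from each other. Rian-202 (2355 bases, 11 exons), the leading model, had 7807 reads in replicate 1 and 7815 in replicate 2, a 1.02-fold ratio whose interval on the log2 scale ran from -0.01 to 0.08. Rian-201 (8089 bases, 2 exons), which covers most of its genomic span of 8848 bases, had 766 and 1146 reads, a 1.53-fold ratio with an interval of 0.48 to 0.75. Rian-213 (1219 bases), with 19.5% and 18.3% of the TPM, had 2221 and 2266 reads. The intervals of Rian-202 and Rian-201 do not overlap, and the kallisto-format table gave log2 ratios of -0.01 for Rian-202 and 0.52 for Rian-201. The difference between the models was not tested across animals.

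Mirg (12:109729764-109749460, plus strand), the host of a microRNA cluster at the far end of the domain, was the lowest of the maternal transcripts. It drew 1370 reads in replicate 1 and 1799 in replicate 2. Its level was 36.2 TPM in replicate 1 and 48.95 TPM in replicate 2, or 42.6 ± 9.001 TPM (SD, n = 2). The level was higher in replicate 2, with a log2 ratio of 0.43 and, at this lower depth, a wider interval of 0.325 to 0.53. No single transcript carried the gene: Mirg-201, Mirg-207 and Mirg-203 held 25.1%, 24.7% and 20.5% of the TPM in replicate 1, and 28.4%, 20.5% and 18.1% in replicate 2. The longest, Mirg-204 (3822 bases), held 6.29% and 7.33%.

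Most small RNAs inside these hosts had 0 reads in the tables. Rian spans 13 annotated small nucleolar RNAs and Snhg14 spans 208, all at 0 reads in both animals, and none of them is longer than 100 bases. Mirg spans 14 microRNA genes and Meg3 2, also at 0 reads. Of 4 microRNA genes in Rian, 1 had reads, 12 in each animal, and it is longer than 100 bases. Of 2 small nucleolar RNAs in Snhg11, both longer than 100 bases, 1 had 32 and 42 reads. In the RSEM-format table entries of 100 bases or fewer have no effective length, so a 0 there says nothing about the level.

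No other listed gene of the Dlk1-Dio3 domain was called, though several are too shallow to be called at the ratios of Meg3, Rian and Mirg. Of 6 listed genes that are not in the set, 0 were called in either direction, and their median log2 ratio was -0.09, while Meg3, Rian and Mirg were all called as higher in replicate 2. Dlk1, a paternal gene for a Notch-like ligand, had 458 and 372 reads and a log2 ratio of -0.265. Its 95% counting interval, -0.467 to -0.065, excluded equal levels on the side of replicate 1, but the stricter rule did not call it. Rtl1, a paternal retrotransposon-derived gene, had 40 and 28 reads (95% counting interval of the log2 ratio -1.23 to 0.25), and Dio3, which inactivates thyroid hormone, had 36 and 34 (-0.77 to 0.67). A difference of these genes from their noncoding neighbours was not tested. All 3 were low in this adult cortex, at 5.84 ± 0.149, 0.23 ± 0.0424 and 0.77 ± 0.0283 TPM (SD, n = 2). Begain, a synaptic gene and the most abundant of the 6, stood at 53.6 ± 3.45 TPM with a ratio of -0.08 (-0.151 to -0.001).

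Snhg14 (7:59307924-59975759, minus strand) is annotated over 667.8 kb and includes the RNA antisense to Ube3a. It drew 13111 reads in replicate 1 and 14511 in replicate 2. Its level was 524 TPM in replicate 1 and 649 TPM in replicate 2, or 586.5 ± 88.0 TPM (SD, n = 2), the 90th of all genes. It was higher in replicate 2, with a log2 ratio of 0.18 (0.15 to 0.215).

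The level of Snhg14 depended on the table more than that of any other member by reads. The kallisto-format table assigned it 23522 and 27380 reads, 1.79 and 1.89 times the RSEM-format counts, where the ratio over all genes was 1.09 and 1.14, and gave 1026 ± 30.6 TPM. The models that led also changed. Snhg14-203 (670 bases) held 49.8% and 48.2% of the TPM in the RSEM-format table and 9.23% on average in the kallisto-format table. Snhg14-205 (456 bases) had 0 reads in both animals in the first and 2037 and 2207 reads in the second, where it led with 31.7%. Snhg14-206 (2517 bases) had 1627 and 1750 reads against 8492 and 9834. In the RSEM-format table Snhg14-208 (687 bases) held 16.2% and 16.9% of the TPM, Snhg14-207 (770 bases) 9.72% and 10.4%, and the longest model, Snhg14-211 (6861 bases), 3.07% and 2.98%.

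Snhg14-203 and Snhg14-205 are built from repeated exons, as their sequences show. Of the words of 31 bases in Snhg14-203, 67.5% occur again within it and 90.2% occur in other models of the gene, and for Snhg14-205 the shares are 75.6% and 76.1%. The longest run the 2 models share measures 247 bases, spliced from exons within 7:59681532-59696174 for Snhg14-203 and within 7:59698785-59703857 for Snhg14-205, which do not overlap. It is shown on the sense strand with both copies of a repeated stretch of 100 bases in capitals.
Snhg14-203 and Snhg14-205: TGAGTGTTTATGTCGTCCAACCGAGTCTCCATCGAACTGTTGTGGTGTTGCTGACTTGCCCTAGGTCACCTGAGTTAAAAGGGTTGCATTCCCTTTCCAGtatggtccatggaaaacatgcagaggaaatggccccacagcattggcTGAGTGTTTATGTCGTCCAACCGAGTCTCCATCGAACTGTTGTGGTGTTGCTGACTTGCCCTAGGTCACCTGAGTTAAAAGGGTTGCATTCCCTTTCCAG
A read inside this run cannot be placed on either model by sequence. The shares of these 2 models are therefore uncertain. That of Snhg14-206, with 34.4% of its words in other models, also differed between the tables. Why the reads of the whole gene differed between the tables was not tested. The direction of the gene between the animals was the same in both tables.

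Ube3a, the ubiquitin ligase that Snhg14 overlaps on the other strand, had 6012 and 5628 reads in replicates 1 and 2 and was not called, with a log2 ratio of -0.06. Whether the counting used strand is not stated, so reads of overlapping opposite genes cannot be told apart with certainty. Of the 9 listed genes of the Snrpn-Ube3a domain that are not in the set, 0 were higher in replicate 2, 1 was higher in replicate 1 and 8 were not called. The 1 called was Ndn, a paternal neuronal gene, at 4960 and 4182 reads and a ratio of -0.21. Snrpn, a paternal gene for a splicing protein, had 16083 and 15402 reads, and Snurf, which shares its transcripts and was listed highest at 1059 ± 19.7 TPM, had 3027 and 2775. In the kallisto-format table Snurf is listed at 0 TPM, so its place rests on the RSEM-format split.

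Kcnq1ot1 (7:143203458-143296549, minus strand) is annotated as 1 unspliced transcript of 93092 bases. It drew 3814 reads in replicate 1 and 4372 in replicate 2. Because of its length, its level was only 1.64 TPM in replicate 1 and 2.11 TPM in replicate 2, or 1.875 ± 0.332 TPM (SD, n = 2), the 489th of the long noncoding genes by TPM and the 15th by reads. It, too, was higher in replicate 2, with a log2 ratio of 0.23 (0.17 to 0.29). Kcnq1, the potassium channel gene it overlaps, had 10 and 6 reads.

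Of the 9 tested genes listed for the Kcnq1 domain that are not in the set, Igf2 and H19 belong to an adjoining imprinted region. Of all 9, 0 were higher in replicate 2, 2 were higher in replicate 1 and 7 were not called. The 2 were Cd81, a tetraspanin, at 7564 and 6648 reads and a ratio of -0.15, and Igf2, a growth factor also made by choroid plexus and meninges, at 2445 and 1699 reads and a ratio of -0.49. Cdkn1c, a cell cycle inhibitor that Kcnq1ot1 is known to silence on the paternal copy, had 248 and 238 reads and was not called. Phlda2, another target known from placenta, had 0 reads in both animals.

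Snhg11 (2:158375638-158386145, plus strand) is a neuronal RNA whose gene the annotation lists as protein_coding, so its place among noncoding genes rests on its name. It drew 25836 reads in replicate 1 and 32173 in replicate 2. Its level was 206 TPM in replicate 1 and 286 TPM in replicate 2, or 245.9 ± 56.0 TPM (SD, n = 2). Replicate 2 was higher, with a log2 ratio of 0.35 (0.33 to 0.37). Snhg11-201 (5864 bases, 5 exons) led clearly, with 82.4% and 83.3% of the TPM and 94.7% and 95.02% of the reads.

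By deposited TPM the order was Malat1, Meg3, Snhg14, Rian, Snhg11, Miat, Mirg, Neat1 and Kcnq1ot1, and no 2 neighbours in this order overlapped between the animals. The kallisto-format table exchanged Meg3 and Snhg14 and kept the rest. A measure that needs no split among transcripts is RPKM over the union of a gene's exons, added after seeing the data. It still rests on the gene's read count, taken first from the RSEM-format table. By this RPKM Malat1 stood at 1224 ± 245 (SD, n = 2), Meg3 at 132.8 ± 26.5, Snhg11 at 103.0 ± 19.3, Miat at 32.3 ± 7.17, Rian at 25.9 ± 2.26 and Snhg14 at 15.99 ± 1.67. Snhg14 thus moved from the third place to the sixth, and Malat1, Meg3, Mirg, Neat1 and Kcnq1ot1 kept theirs. With kallisto-format reads Snhg14 had an RPKM of 26.45 ± 2.91, level with Rian at 26.52 ± 2.27, so its distance from Rian depends on the table.

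Compared side by side, 8 of the 9 genes were called as higher in replicate 2, 0 as higher in replicate 1, and Neat1 was not called. Since deep genes pass at small ratios, the share among the 5886 genes with a mean of at least 1000 reads is the closer background: 9.31% of them were higher in replicate 2 and 9.4% higher in replicate 1. Most members lie far above 1000 reads, so this background is not matched to their depth. The members' median log2 ratio was 0.35, against -0.003 for the 5886 deep genes, 0.00 for all tested genes and 0.03 for 1766 other long noncoding genes. Genes of the last 2 groups entered with as few as 10 reads in a library, far below the member with the fewest, Mirg, at 1370 and 1799. The ratios of the called members were modest in size, from 1.11-fold for Rian to 1.34-fold for Mirg and Miat. Of the 9, 0 reached 2-fold, as 1.22% of all tested genes did, 0.57% of all tested genes as higher in replicate 2. Of the deep genes, 23 had a log2 ratio of at least 0.35, and 5 of these were Malat1, Miat, Meg3, Mirg and Snhg11. The cut of 0.35 is the members' own median, so that 5 of the 9 reach it by definition, and the count is no test.

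**Figure D3:**
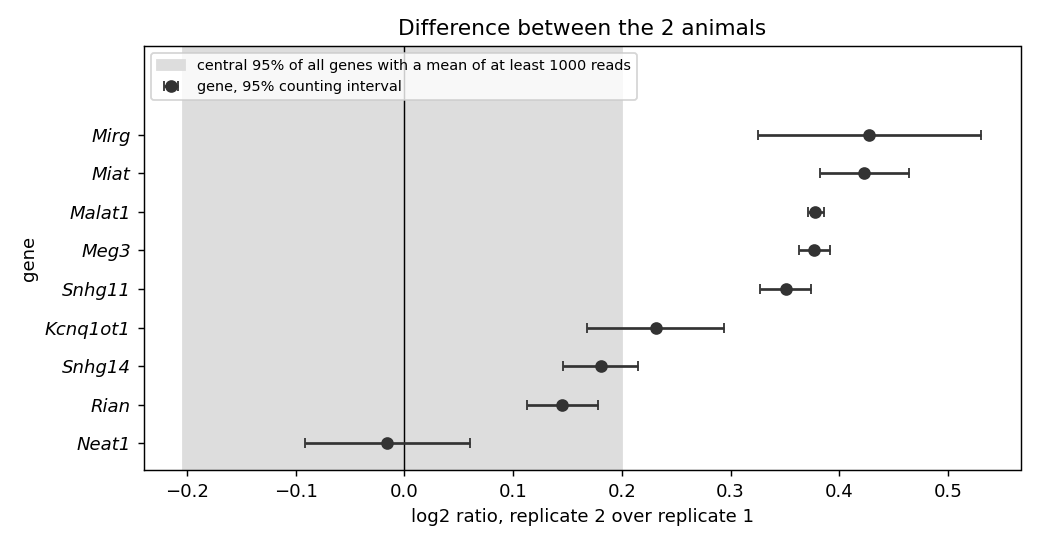
Log2 ratio of replicate 2 over replicate 1 for each gene, with its 95% counting interval, over the central 95% of 5886 genes with a mean of at least 1000 reads (grey, -0.20 to 0.20). Mirg, Miat, Malat1, Meg3, Snhg11 and Kcnq1ot1 lie above the grey band, Snhg14 and Rian lie inside it on the higher side, and Neat1 lies at 0.

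Other abundant or well known long noncoding RNAs did not move as a group, though many are too shallow to be called at the members' ratios. Of 30 listed, 26 matched an entry and 25 were tested: 3 were higher in replicate 2, 1 was higher in replicate 1 and 21 were not called. Their median ratio was -0.02 on the log2 scale. The 3, named for being called, were Mir124a-1hg, the host of a neuronal microRNA, at 3588 and 4571 reads (ratio 0.38), Firre, an X-linked RNA, at 1711 and 1919 reads (0.20), and Peg13, an imprinted RNA, at 9386 and 9761 reads (0.09). Gm26917, the most abundant of the list, was higher in replicate 1, with a ratio of -0.13. Among 9 tested neighbours of Malat1 and Neat1 on chromosome 19, 1 was called, Dpf2, a chromatin gene, with a ratio of 0.21 and 1063 and 1204 reads.

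Other groups of genes differed between the same animals. Of 12 immediate early genes, which neurons switch on with activity, 9 were higher in replicate 2 and 0 in replicate 1. Their median log2 ratio was 0.62, and their summed level was 132.6 TPM in replicate 1 and 266.4 TPM in replicate 2. Fos, Egr2, Arc and Nr4a1 passed 2-fold, with log2 ratios of 1.52, 1.23, 1.16 and 1.39. Of 7 tested small structural RNAs, 5 were higher in replicate 1 and 0 in replicate 2, with a median of -0.27. Rn7s1 and Rn7s2 are listed with the same values, 676578 and 548472 reads and a ratio of -0.27, so their calls are not separate. Choroid plexus markers had a median of -1.97. Of 8 markers of thalamus and hypothalamus, regions outside the cortex, 5 were higher in replicate 1 and 0 in replicate 2, with a median of -0.82, and their summed level was 98.2 TPM in replicate 1 and 70.8 TPM in replicate 2. Prkcd and Zic1 of that list passed 2-fold, with log2 ratios of -1.61 and -1.23. Of 7 astrocyte markers 6, and of 7 oligodendrocyte markers 5, were higher in replicate 1, with medians of -0.14 and -0.13. Of 6 microglia markers 3 were higher in replicate 1 and 3 were not called, with a median of -0.17. Of 10 excitatory neuron markers 1 was higher in each animal and 8 were not called, with a median of 0.04. Inhibitory neuron markers, 8 in number, had a median of -0.07, with 1 higher in replicate 1 and 7 not called. Endothelium markers, 5 in number, had a median of -0.22, with 1 higher in replicate 1 and 4 not called. The part of these groups in the members' ratios was not tested, and in bulk RNA fewer cells of a type and less RNA per cell cannot be told apart.

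**Figure D4:**
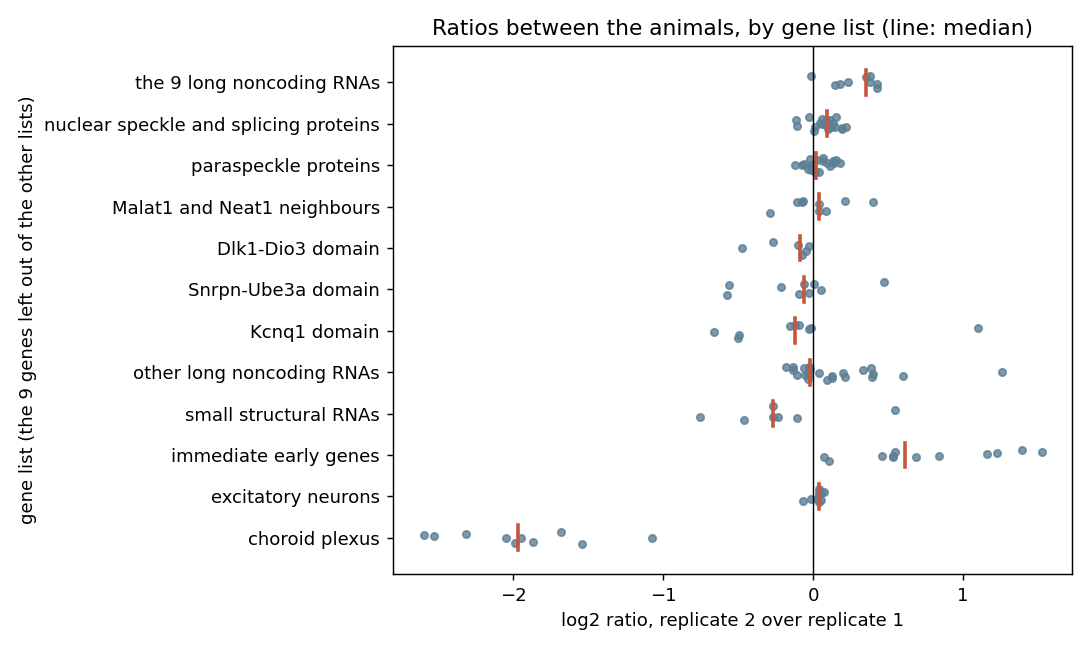
Log2 ratio of replicate 2 over replicate 1 for each tested gene (points) of the 9 long noncoding RNAs and of 11 other lists from which those 9 were left out, with the median of each list (line). The 9 genes have a median of 0.35, excitatory neuron markers 0.04, immediate early genes 0.62 and choroid plexus markers -1.97.

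Within genes, the models with the most reads had ratios near that of the gene, except in Rian, where Rian-202 stood at 0.04 and the long Rian-201 at 0.61, with intervals on either side of that of the gene. The log2 ratios were 0.39 (0.38 to 0.40) for Malat1-201, 0.39 (0.38 to 0.41) for Meg3-209, 0.42 (0.38 to 0.47) for Miat-201, 0.36 (0.33 to 0.38) for Snhg11-201 and -0.02 (-0.12 to 0.07) for Neat1-202. Among spliced models of the same genes, Malat1-202 had 0.17 (0.12 to 0.21) in the RSEM-format table and -0.58 in the kallisto-format table, with 1098 and 754 reads. Meg3-203 had 0.21 (0.12 to 0.29) in the first and 0.76 in the second. For these short models the size of the ratio depended on the table, and for Malat1-202 its direction did too.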

How the data were processed

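Per the labels, total RNA of 2 animals, 300 ng each, was depleted of ribosomal RNA and made into directional libraries with spike-in RNA. The authors deposited expected counts, TPM and the percent of each gene's TPM per transcript (RSEM format), and estimated counts and TPM (kallisto format), per the file headers, on mm10 with annotation M21. Bounds of the TPM interval, a score here, were deposited by the authors and not used. Program versions, read filters and use of strand: not given in the sources used here.

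Expected counts were rounded to whole numbers. Ratios are replicate 2 over replicate 1, scaled by TMM effective library sizes (edgeR 4.0.16, R 4.3.3), with 0.5 reads added. A gene entered the counting rule when either library held at least 10 reads, and was called when a Clopper-Pearson interval with an error of 0.1% for how its reads divide (scipy 1.17.1) excluded equal levels. The rule was also run on simulated counts that held counting error only. They held no spread between animals, so the run checks the arithmetic of the rule and not its error on real animals. Printed intervals are 95% Clopper-Pearson intervals. They, and the floor of 3 reads, cover only counting error: the reads carry no molecular identifiers, and with 1 animal on each side they hold no spread between animals.

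The members, lists and motifs were chosen with earlier results of these data known. Named genes were the 9 members, transcripts with at least 10% of their gene's TPM in either animal and the longest. Of each list they were the most abundant gene, genes at least 2-fold different, genes at 0 reads in both animals and up to 4 whose role is background to a member. Genes named because they were called, Snhg14-205 and Snhg14-206 were chosen after their values were seen. Alternatives were DESeq2 size factors (1.42.0), total counts, spike-in totals, the kallisto-format table, other thresholds and each animal alone. Transcript sequences come from the annotation M21 and promoters from RefSeq (GRCm38.p6). Spike-ins, 0.516% and 0.499% of reads, were kept out of gene totals. Some genes of the lists are not reported here by name.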

Additional observations from a re-analysis of the deposited data

How the results depend on the processing

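The members' median level was 245.9 TPM, and 455.9 TPM when TPM were rescaled without spike-ins, mitochondrial genes, Rn7s1, Rn7s2 and Rn7sk, which hold much of the total. With 1 animal alone it ranged from 206.4 to 285.5 TPM. The members' median log2 ratio was 0.35, and 0.38 with total counts, 0.43 with spike-in totals, 0.32 in the kallisto-format table and 0.43 on deposited TPM, where the median of deep genes itself stood at 0.13. It was 0.08 for deep genes with spike-in totals. Only Neat1 changed the sign of its ratio among the members under these scalings. The count of 8 members higher in replicate 2 was the same with a 95% interval, a minimum of 1 read, DESeq2 size factors, spike-in totals and the kallisto-format table, and fell to 0 where at least 2-fold was required. Over the 8 genes with more than 1 model, the transcripts that led in the RSEM-format table had a median share of 46.7%. The same transcripts had a median of 44.2% in the kallisto-format table, although Snhg14 had another leader there, Snhg14-205. Malat1 and Snhg14 moved by over 1.5 times in level, as given above. The cause was not tested. No paired analysis was possible because the study has 1 group, in which each replicate number occurs once. The interval of Mirg, the member with the fewest reads, was the widest of the 9.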
